A study of Homo sapiens with 9 samples.

Results

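The 10 genes described here are the core regulators of the passage from G1 into S phase: the D-type cyclins CCND1 and CCND3, the E-type cyclins CCNE1 and CCNE2, the kinases CDK4 and CDK6, the inhibitors CDKN1B and CDKN2C, the repressor RB1 and the transcription factor E2F1. They were chosen by name, and all 10 were among the 19658 genes tested, of 56823 genes with summed read estimates. RNA came from H1975 cells, an established human line of non-small cell lung cancer, which carried TRE-dCas9-KRAB, a doxycycline-inducible nuclease-dead Cas9 fused to a transcriptional repressor domain. Cells had a non-targeting guide RNA (control), TRIDENT gRNA1 or TRIDENT gRNA2, which are directed at the long noncoding RNA TRIDENT. There were 3 libraries in each of the 3 groups. All groups, controls included, carried the repressor and were kept in G418 and puromycin, and all received doxycycline at 4 ug/ml for 72 h, so no library shows the cells without the repressor. Each group is a derivative of 1 cell line, and nothing in the labels states whether replicates came from separate cultures, so p-values measure the spread between these libraries, which may be technical.

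D-type cyclins accumulate in response to growth factor signals and bind CDK4 or CDK6. The resulting kinases phosphorylate RB1, which otherwise holds E2F factors in an inactive state on promoters. Released E2F switches on the genes of DNA synthesis and the E-type cyclins, whose kinase partner CDK2 phosphorylates RB1 further. CDKN2C, of the INK4 family, binds CDK4 and CDK6, and CDKN1B (p27) inhibits cyclin E-CDK2. In lung adenocarcinoma driven by EGFR, cyclin D1 is a well known endpoint of the growth signal. Much of this control acts through phosphorylation and protein turnover, which RNA libraries do not measure.

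Read totals ran from 16918432 to 26466536 per library. RefSeq gives TRIDENT as a synonym of the noncoding gene TRIDDENT and also of FOXM1, which encodes a protein; the series names a long noncoding RNA, so TRIDDENT was taken as the target. FOXM1 was at 0.879-fold with gRNA1 and 0.754-fold with gRNA2 (edgeR adjusted p = 0.0249 and 0.000132). It is also 1 of the G2 and mitosis genes described below, most of which were called lower with gRNA2. Its gRNA1 call was lost under several alternatives given there. TRIDDENT had 36 to 62 reads per library. It had 2.58 ± 0.287 CPM (TMM-scaled counts per 1000000 reads; mean ± SD, n = 3) in the controls, 1.91 ± 0.163 under the label gRNA1 and 2.44 ± 0.132 under the label gRNA2. Neither difference from the controls passed edgeR's quasi-likelihood test with Benjamini-Hochberg adjustment over all genes tested (adjusted p = 0.128 and 0.81), so the labels are used below as names of the libraries. The third gRNA2 library was the shallowest and stood apart on the second principal component. All 9 of 9 epithelial and lung adenocarcinoma markers were tested, and the list's sum was 3390 to 3800 per 1000000 reads of a library. Of 12 markers of blood, endothelial and stromal cells 9 were tested, COL3A1 had 0 reads, and the list's sum was 84.3 to 103 on the same scale, most of it from CD68. Of the 9 epithelial markers 2 were called lower with gRNA1 (EGFR and CDH1) and 2 with gRNA2 (KRT19 and KRT8), where 3.58% and 4.75% of all genes tested were called lower. EGFR was called at 0.920-fold (edgeR adjusted p = 0.0254) and KRT19 at 0.817-fold (0.00187). Both gRNA1 calls were lost with length offsets, among protein-coding genes alone, and without any 1 control, gRNA1 replicate 1 or 2, or gRNA2 replicate 2; 1 was called in a fit of the 2 groups alone and without gRNA1 or gRNA2 replicate 3. With gRNA2 1 was called with length offsets and without control replicate 1 or 2 or gRNA2 replicate 2 or 3. Of the other-cell markers only CDH5, of endothelium, passed, rising from 0.858 to 2.69 CPM with gRNA1 and to 2.00 with gRNA2 (edgeR adjusted p = 0.000945 and 0.00689); its part in the results below was not tested. With bulk RNA, fewer cells in a phase of the cycle and less RNA per cell cannot be told apart.

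Levels can be compared between genes only per length, in TPM, the share of transcript molecules on a fixed total. In the controls CCND1 was highest, at 85.0 ± 6.98 TPM (n = 3), followed by CDK4 at 69.7 ± 0.159, CDKN1B at 26.5 ± 1.43 and CDK6 at 21.1 ± 0.846. CCND3 had 10.7 ± 1.16 TPM and CCNE1 10.1 ± 0.555, and the ranges of this pair overlapped. E2F1 had 4.77 ± 0.194 TPM and RB1 4.48 ± 0.535, again with overlapping ranges. CDKN2C, at 2.90 ± 0.335 TPM, and CCNE2, at 2.53 ± 0.161, also overlapped and were the lowest of the 10. All other neighbours in this order were apart in the 3 control libraries. These TPM levels made CCND1 the main D-type cyclin, at 7.97 ± 0.734 times CCND3 within the control libraries. CCND2, the other D-type cyclin, had 0 to 4 reads per library and was not tested. CDK4 exceeded CDK6 in TPM by 3.31 ± 0.125 times, and CCNE1 exceeded CCNE2 by 4.00 ± 0.400 times. These levels are sums that include short transcript models. The transcript with most reads alone had 25.6 TPM for CDK4, 24.0 for CDKN1B and 16.0 for CDK6 in the controls. For CCNE1 it had 4.56 TPM and for CCNE2 1.54. Of the 31-base words of that transcript, 48.4% for CDK4 and 55.3% for CCNE2 occur in other genes.

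**Figure D1:**
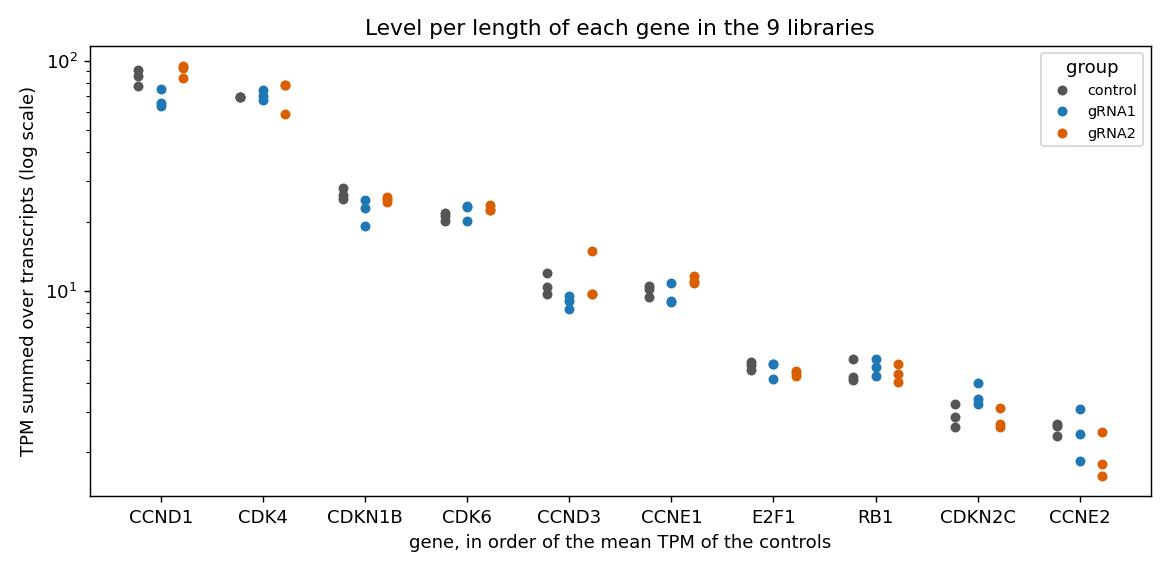
TPM of the 10 genes in each library (points; log axis), by group, ordered by their mean in the controls. CCND1 and CDK4 lie highest, and CDKN2C and CCNE2 lowest, with the 3 groups close together for each gene.

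Cyclin D1 RNA fell in the libraries labelled gRNA1 and was higher in those labelled gRNA2 than in those labelled gRNA1. CCND1 (ENSG00000110092.3, chromosome 11, 69641087 to 69654474 on the plus strand of hg38 in GENCODE 29) had 259, 265 and 254 CPM in the controls. It had 228, 232 and 232 CPM with gRNA1, and 254, 252 and 254 with gRNA2. The 3 gRNA1 libraries lay below all 6 others, while the gRNA2 and control libraries overlapped. The fold change of gRNA1 over the control was 0.890 (95% interval 0.849 to 0.934, edgeR adjusted p = 0.00628), and that of gRNA2 over the control was 0.977 (0.931 to 1.025, adjusted p = 0.577). The direct comparison of gRNA2 with gRNA1 gave 1.10-fold (1.05 to 1.15, edgeR adjusted p = 0.0243). Leaving out control replicate 2 took the first call to an adjusted p of 0.0524. The second was lost without gRNA1 replicate 1 (0.087) or 2 (0.106), or without gRNA2 replicate 2 (0.108) or 3 (0.0586). 

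The transcript CCND1-201 (ENST00000227507.2) took 96.66% of the gene's reads. Its own level was 54.2 ± 2.45 TPM over the control libraries, 49.1 ± 2.58 with gRNA1 and 54.3 ± 1.74 with gRNA2. It made up only 64.0% of the gene's TPM in the controls, as short retained-intron models take few reads but many TPM. One of them, CCND1-206, took 1.347% of the reads, and its TPM was 17.3 ± 1.37 for the control, 9.36 ± 6.11 for gRNA1 and 21.5 ± 5.56 for gRNA2. With offsets for average transcript length the log2 fold change of the gene moved from -0.17 to -0.34 with gRNA1 (edgeR adjusted p = 0.0186) and from 0.13 to 0.37 for gRNA2 over gRNA1 (0.0132). The 3' end of CCND1 overlaps LTO1 on the other strand, and 10.4% of the 31-base words of CCND1-201 also occur in other genes, mostly LTO1. LTO1 had a fold change of 0.996 with gRNA1 (0.935 to 1.06, edgeR adjusted p = 0.963) and 1.085 with gRNA2 (1.019 to 1.155, 0.107). For gRNA2 over gRNA1 it was at 1.089-fold (1.022 to 1.16, edgeR adjusted p = 0.113), where CCND1 was at 1.097-fold. The part of LTO1 reads in the CCND1 values was not tested.

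CCND3, the minor D-type cyclin of these cells, also fell in reads with gRNA1. The gene (ENSG00000112576.12, chromosome 6, 41934933 to 42050357, minus strand) had 15.3, 14.7 and 14.6 CPM in the controls, 11.1, 10.9 and 12.9 with gRNA1, and 13.1, 13.1 and 10.2 with gRNA2. All 6 guide libraries lay below the 3 controls. The fold change was 0.782 with gRNA1 (0.677 to 0.904, edgeR adjusted p = 0.0419) and 0.825 with gRNA2 (0.715 to 0.951, adjusted p = 0.0909), so only the first passed, and the direct comparison of gRNA2 with gRNA1 did not (1.05-fold, 0.910 to 1.22, adjusted p = 0.755). The call with gRNA1 rested on 226 to 362 reads per library. It was lost with DESeq2 (0.0532), with the replicate number as a block (0.0643), with length offsets (0.382), and without control replicate 1 (0.113), 2 (0.1) or 3 (0.103), gRNA1 replicate 1 (0.134) or 2 (0.162), or gRNA2 replicate 2 (0.0539).

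For CCND3 the scale matters. In TPM the controls had 9.74, 12.0 and 10.4, the gRNA1 libraries 9.50, 9.09 and 8.38, and the gRNA2 libraries 9.70, 15.0 and 9.72. On that scale gRNA1 still lay below every control, but gRNA2 overlapped the controls and held the highest library of all. With length offsets the log2 fold change was -0.28 with gRNA1 (edgeR adjusted p = 0.382) and 0.03 with gRNA2 (0.945). The leading transcript CCND3-203 (ENST00000372991.8), with 75.43% of the reads, held 64.2% ± 5.42 of the gene's TPM among the control libraries, 54.9% ± 6.57 among gRNA1 and 44.4% ± 12.4 among gRNA2. In its own TPM it was at 6.85 ± 0.595 for the control, 4.94 ± 0.687 with gRNA1 and 4.95 ± 1.03 with gRNA2. The rest was spread over short models, among them CCND3-220, which was estimated at 0 in every control and at 2.24 ± 2.42 TPM with gRNA2. The gene has 23 transcript models, and 1 took at least 10% of its reads.

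**Figure D2:**
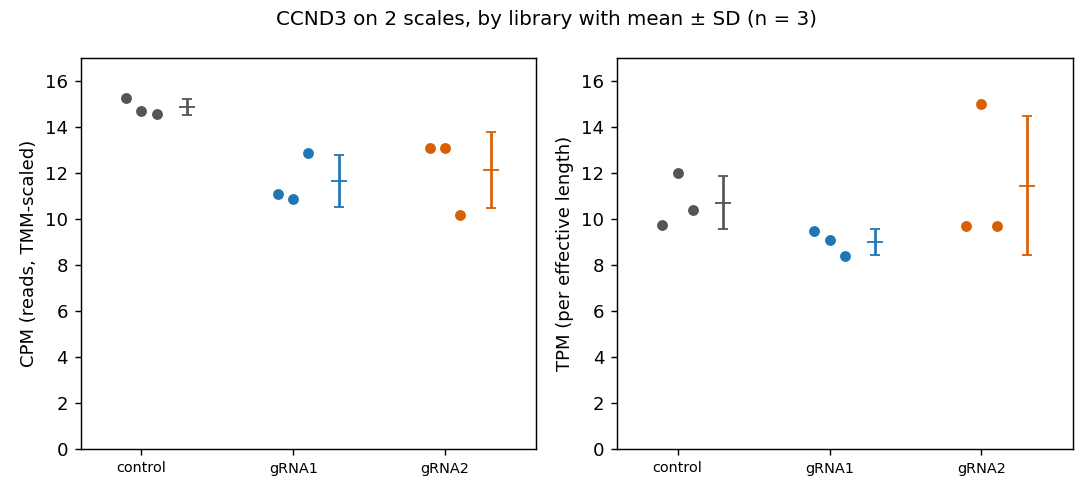
CCND3 in each library (points), with mean ± SD (n = 3) beside them, as TMM-scaled reads (CPM, left) and per effective length (TPM, right). In CPM all 6 guide libraries lie below the controls, and in TPM the second gRNA2 library, at 15.0, lies above them.

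Cyclin E RNA did not pass the test in any comparison. CCNE1 (ENSG00000105173.13, chromosome 19, 29811898 to 29824308, plus strand) had 15.9, 15.4 and 15.7 CPM in the controls, 13.8, 15.5 and 12.9 with gRNA1, and 15.8, 15.0 and 15.4 with gRNA2. Replicates 1 and 3 of gRNA1 lay below the other 7 libraries. The fold changes were 0.902 (0.806 to 1.01, edgeR adjusted p = 0.271) and 0.985 (0.881 to 1.10, 0.899). In TPM the gRNA2 libraries, at 11.1, 10.9 and 11.6, lay above the controls, at 10.2, 10.5 and 9.45. They also lay above the gRNA1 libraries, 1 of which was at 10.9 too after rounding. CCNE1 was the gene with the most divided transcript assignment, with 61.81%, 12.98% and 10.9% of its reads on CCNE1-201, CCNE1-206 and CCNE1-203. The second of these was estimated at 0 TPM in at least 1 control and 1 gRNA1 library.

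CCNE2 (ENSG00000175305.17, chromosome 8, 94879770 to 94896678, minus strand) had 65 to 128 reads per library. Its levels were 4.33, 5.21 and 4.41 CPM in the controls, 4.63, 4.65 and 5.27 with gRNA1, and 3.75, 4.16 and 3.90 with gRNA2. The 3 gRNA2 libraries lay below all 6 others. The fold change of gRNA2 was 0.844 over the control (0.705 to 1.01, edgeR adjusted p = 0.244) and 0.814 over gRNA1 (0.680 to 0.974, adjusted p = 0.185), and neither passed. INTS8, a gene of the Integrator complex on the other strand, overlaps CCNE2, and 55.3% of the 31-base words of CCNE2-201 occur in other genes, mostly INTS8. INTS8 had 18246 reads over the 9 libraries against 880 for CCNE2, and the strand setting of the counting is not given in the sources used here. INTS8 itself was lower with gRNA2 than with gRNA1, at 0.893-fold (edgeR adjusted p = 0.0331). The part of INTS8 reads in the CCNE2 values was not tested.

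Neither G1 kinase passed the test in any comparison. CDK6 (ENSG00000105810.9, chromosome 7, 92604921 to 92836594, minus strand) had 171, 183 and 175 CPM in the controls, 178, 182 and 168 with gRNA1, and 167, 179 and 185 with gRNA2. In CPM the groups overlapped throughout, while in TPM the gRNA2 libraries, at 22.4, 23.7 and 22.5, lay above the controls, at 21.2, 21.9 and 20.2. In reads its fold change was 1.00 for both guides, with intervals of 0.935 to 1.07 and 0.940 to 1.075 (edgeR adjusted p = 0.995 and 0.950). Of its reads 98.02% were on CDK6-201.

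CDK4 (ENSG00000135446.16, chromosome 12, 57747727 to 57756013, minus strand) had 80.6, 75.1 and 79.0 CPM in the controls, 76.9, 71.5 and 72.0 with gRNA1, and 72.6, 71.7 and 73.3 with gRNA2. The gRNA2 libraries lay below the controls and the gRNA1 libraries overlapped them. The fold changes were 0.940 (0.881 to 1.00, edgeR adjusted p = 0.247) and 0.928 (0.870 to 0.989, adjusted p = 0.145). In TPM all groups overlapped, and CDK4-201 held 70.11% of the reads but 36.7% of the TPM in the controls. The gene TSPAN31 overlaps CDK4 on the other strand, and 48.4% of the 31-base words of CDK4-201 occur in other genes, mostly TSPAN31. TSPAN31 had fold changes of 0.919 and 0.938 (edgeR adjusted p = 0.218 and 0.342), close to those of CDK4, and its part in the CDK4 values was not tested.

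Of the inhibitors, CDKN1B fell with gRNA1. The gene (ENSG00000111276.10, chromosome 12, 12715058 to 12722371, plus strand) had 54.0, 55.4 and 56.4 CPM in the controls, 50.7, 49.1 and 45.4 with gRNA1, and 49.0, 51.3 and 53.9 with gRNA2. Every guide library lay below every control, the third gRNA2 library by the least. The fold change was 0.876 with gRNA1 (0.811 to 0.945, edgeR adjusted p = 0.0381) and 0.928 with gRNA2 (0.860 to 1.00, adjusted p = 0.220), and the direct comparison of gRNA2 with gRNA1 did not pass (1.06-fold, 0.981 to 1.14, adjusted p = 0.421). The call was kept by DESeq2 (0.0403). It was lost among protein-coding genes alone (0.065), with the replicate number as a block (0.0611), with length offsets (0.1), and without control replicate 1 (0.0721), 2 (0.134) or 3 (0.139), gRNA1 replicate 2 (0.113) or 3 (0.128), or gRNA2 replicate 2 (0.081). In contrast to CCND3, 98.31% of its reads were on 1 transcript, CDKN1B-201. As for CCND3, the gRNA1 libraries lay below the controls in TPM too, at 24.8, 23.0 and 19.1 against 26.2, 25.2 and 28.0. The gRNA2 libraries, at 24.4, 25.6 and 25.2 TPM, overlapped the controls on that scale.

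CDKN2C (ENSG00000123080.10, chromosome 1, 50960745 to 50974633, plus strand) was the only 1 of the 10 with a fold change above 1.1 over the control, and it did not pass. Its levels were 5.83, 4.72 and 4.55 CPM in the controls, 6.50, 5.68 and 6.06 with gRNA1, and 4.66, 4.92 and 4.44 with gRNA2. The first control lay among the gRNA1 libraries, and the gRNA2 libraries lay below all of gRNA1. The fold change was 1.21 with gRNA1 (1.02 to 1.45, edgeR adjusted p = 0.184) and 0.937 with gRNA2 (0.782 to 1.12, adjusted p = 0.716), on 74 to 133 reads per library. The direct comparison of gRNA2 with gRNA1 gave 0.774-fold (0.648 to 0.923, edgeR adjusted p = 0.0865). Within libraries the TPM of CDKN1B was 9.25 ± 1.44 times that of CDKN2C in the controls, 6.30 ± 0.446 times with gRNA1 and 9.06 ± 0.725 times with gRNA2, and the gRNA1 range, 5.90 to 6.78, lay below both others. That description combines a p27 value that fell with a CDKN2C value that did not pass.

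RB1 (ENSG00000139687.15, chromosome 13, 48303726 to 48599436, plus strand) overlapped between all groups. It had 18.5, 22.1 and 20.0 CPM in the controls, 22.1, 20.2 and 20.6 with gRNA1, and 18.6, 19.7 and 21.1 with gRNA2. The fold changes were 1.03 (0.924 to 1.16, edgeR adjusted p = 0.769) and 0.975 (0.871 to 1.09, adjusted p = 0.827), and 97.6% of the reads were on RB1-201.

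E2F1 (ENSG00000101412.12, chromosome 20, 33675683 to 33686404, minus strand) has a single transcript model. It had 11.9, 11.6 and 12.0 CPM in the controls, 11.5, 11.2 and 11.1 with gRNA1, and 11.5, 10.3 and 9.67 with gRNA2. All 6 guide libraries lay below the 3 controls, by small steps. The fold change was 0.950 with gRNA1 (0.846 to 1.07, edgeR adjusted p = 0.641) and 0.892 with gRNA2 (0.793 to 1.00, adjusted p = 0.225), and neither passed.

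**Figure D3:**
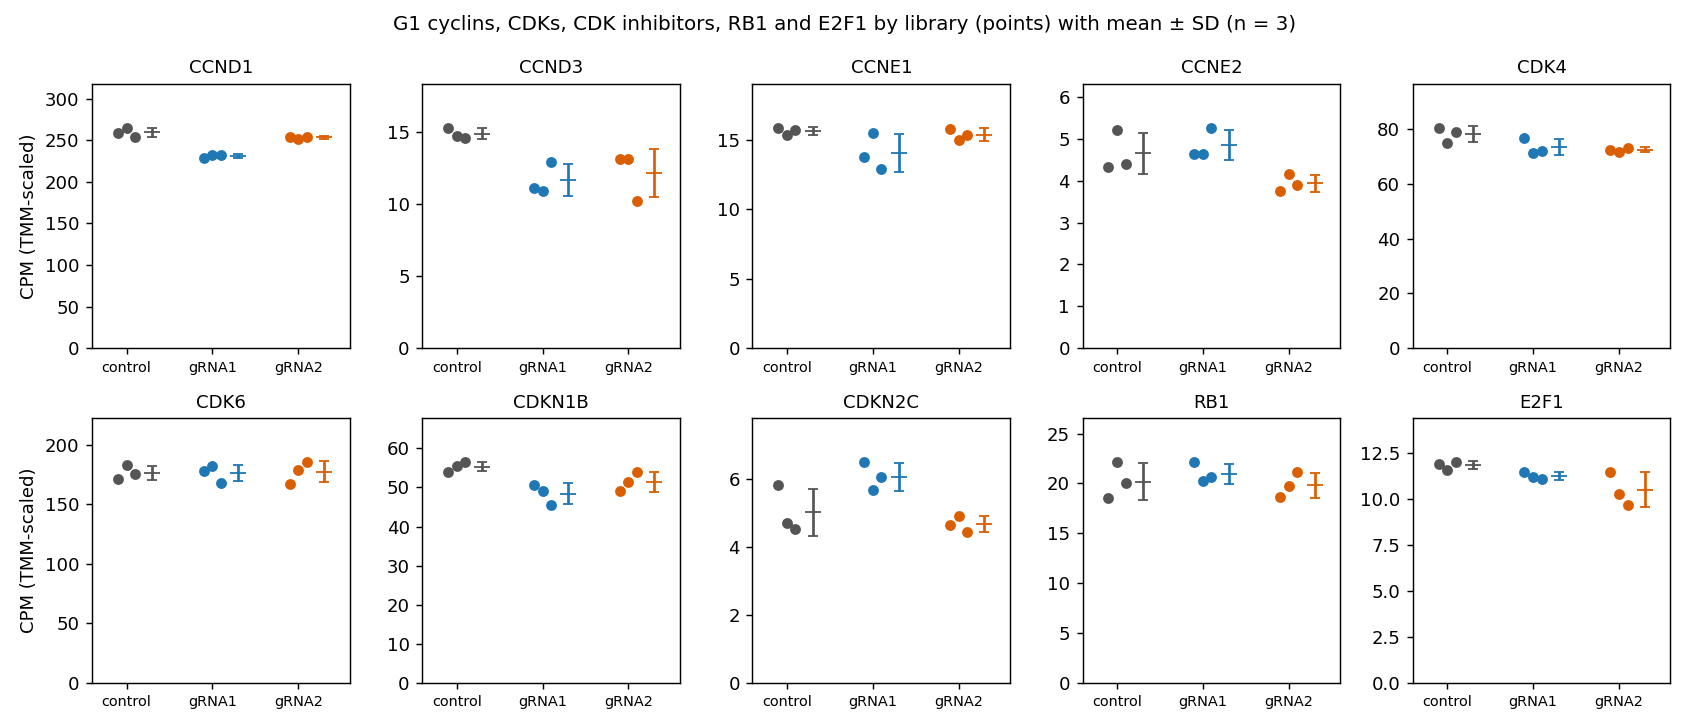
CPM of the 10 genes in each library (points, 1 panel a gene), with mean ± SD (n = 3) for control, gRNA1 and gRNA2. For CCND1 the 3 gRNA1 libraries, at 228 to 232, lie below the other 6, and for CDK6 the groups overlap.

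E2F1 is itself a gene that E2F factors bind, and its promoter letters are shown for that reason. Beside them are those of CDC25A, the phosphatase that activates CDK2, and UHRF1, an E2F target, both lower with gRNA2 below. Only windows that hold the motif are shown, so they do not tell how common it is among genes that fell. The windows are from RefSeq (GRCh38.p14) and run from 250 bases before a start site to 50 after it, and capitals mark matches to the E2F motif.
E2F1, chr20:33686336-33686635, minus strand: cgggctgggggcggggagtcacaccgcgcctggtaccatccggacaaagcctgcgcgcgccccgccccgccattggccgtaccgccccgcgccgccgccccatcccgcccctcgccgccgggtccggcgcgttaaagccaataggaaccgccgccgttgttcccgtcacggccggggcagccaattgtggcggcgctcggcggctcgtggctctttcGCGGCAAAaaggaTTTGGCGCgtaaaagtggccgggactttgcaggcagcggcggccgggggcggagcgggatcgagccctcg
CDC25A, chr3:48188368-48188667, minus strand: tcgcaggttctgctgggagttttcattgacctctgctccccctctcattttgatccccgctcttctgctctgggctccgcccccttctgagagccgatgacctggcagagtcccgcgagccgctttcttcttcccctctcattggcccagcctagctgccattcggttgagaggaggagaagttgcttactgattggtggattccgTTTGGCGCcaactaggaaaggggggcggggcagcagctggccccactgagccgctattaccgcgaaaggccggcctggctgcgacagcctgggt
UHRF1, chr19:4909251-4909550, plus strand: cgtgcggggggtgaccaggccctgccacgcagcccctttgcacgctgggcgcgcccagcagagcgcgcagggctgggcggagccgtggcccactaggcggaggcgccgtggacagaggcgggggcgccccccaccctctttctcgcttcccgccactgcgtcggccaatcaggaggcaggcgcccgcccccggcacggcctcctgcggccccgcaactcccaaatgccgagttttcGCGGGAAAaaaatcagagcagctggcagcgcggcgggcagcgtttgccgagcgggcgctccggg
The E2F motif was searched as TTTCCCGC, TTTCGCGC, TTTGCCGC or TTTGGCGC on both strands. In E2F1 it matched at -33 on the minus strand of the window and at -20 on its plus strand. Both lie just before the start site. In CDC25A it matched at -44, and in the UHRF1 window shown at -14. A second UHRF1 window, at another start site, held a match at -160 and is not shown. Of 35116 promoter windows of that length, 3.31% hold a match. Among the 10 genes 8 had windows, 13 in all, and only that of E2F1 held the motif. The only RB1 window lies at an internal start site. None of the 13 windows held TTTGAA, the core of the cell cycle genes homology region, on either strand, against 15.2% of all windows. A match describes letters, not binding.

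Over the 10 genes, 3 passed the test with gRNA1, all lower (CCND1, CCND3 and CDKN1B), where 7.08% of all genes tested passed, 3.58% as lower and 3.49% as higher. Of the 10 fold changes 7 were below 1, and 4 genes had all 3 gRNA1 libraries below all 3 controls in CPM, a pattern that 14.6% of all genes showed. The median log2 fold change of the 10 was -0.081, against 0.000 over all genes to 3 decimals. With gRNA2, 0 of the 10 passed by edgeR's test, where 8.44% of all genes did, 4.75% as lower and 3.69% as higher. Before adjustment 2 of the 10, CCND3 and CDK4, had a p under the threshold of 0.05, and DESeq2 also called 0. For gRNA2, 9 of 10 fold changes were below 1, 5 genes had all gRNA2 libraries below the controls (13.7% of all genes), and the median log2 fold change was -0.1 against 0.009. Between the guides 1 gene passed, CCND1, higher with gRNA2, where 6.22% of all genes passed, 3.12% as higher and 3.1% as lower. The comparisons of both guides with the control share the same 3 control libraries.

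**Figure D4:**
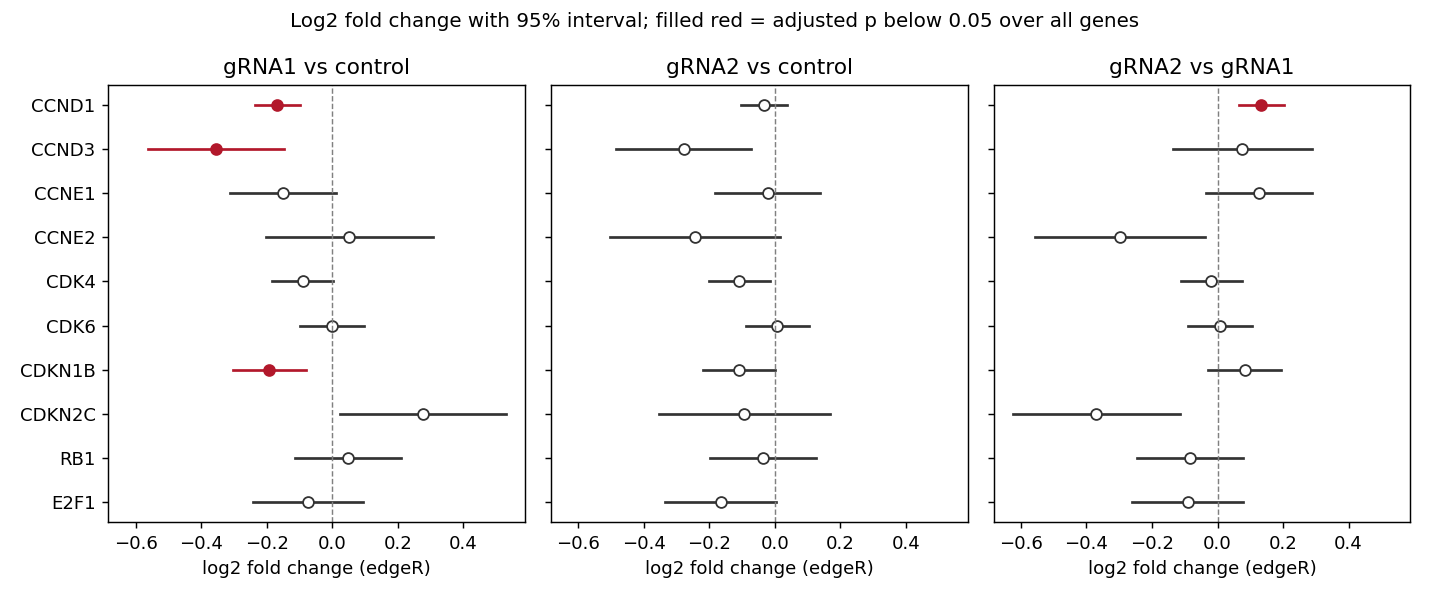
Log2 fold changes of the 10 genes (edgeR) with 95% intervals, for each guide over the control and for gRNA2 over gRNA1; filled red points passed an adjusted p of 0.05 over all genes. CCND1, CCND3 and CDKN1B passed with gRNA1, none with gRNA2, and CCND1 between the guides.

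The other genes of the pathway were taken from lists chosen by name with earlier results of these data known, so their counts are descriptions. Of 15 other G1 cyclins, kinases and inhibitors 14 were tested, and 1 fell with each guide, where 3.58% and 4.75% of all genes tested were called lower. CDKN2B, an INK4 inhibitor, fell to 0.859-fold with gRNA1 (edgeR adjusted p = 0.0494). CDC25A fell to 0.796-fold with gRNA2 (0.706 to 0.897, edgeR adjusted p = 0.0217), with 9.42, 10.5 and 9.65 CPM in the controls and 7.96, 7.60 and 8.05 with gRNA2. MNAT1, the assembly factor of the CDK-activating kinase, was lower with gRNA2 than with gRNA1, at 0.858-fold (edgeR adjusted p = 0.0106). The list's median log2 fold change was -0.086 with gRNA1 and -0.077 with gRNA2, against 0.000 and 0.009 over all genes, and none of the list passed with gRNA1 by DESeq2, with RLE scaling, the replicate block, length offsets or protein-coding genes alone, or without any 1 of the 6 control and gRNA1 libraries or gRNA2 replicate 2. The count with gRNA1 was 2 in a fit of the 2 groups alone and without gRNA2 replicate 1. None passed with gRNA2 by DESeq2, with length offsets or without control replicate 2 or 3 or gRNA2 replicate 2, and 2 passed without gRNA2 replicate 1. With no filter 3 passed with each guide.

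Of 18 other genes of the RB and E2F families and the DREAM complex, which represses cell cycle genes in resting cells, 2 fell with gRNA1, where 3.58% of all genes were called lower. They were the atypical repressors E2F7, at 0.762-fold (0.706 to 0.823, edgeR adjusted p = 0.000482), and E2F8, at 0.817-fold (adjusted p = 0.0125). E2F7 had 43.1, 44.5 and 44.7 CPM in the controls, 34.2, 35.3 and 31.3 with gRNA1, and 37.6, 37.1 and 36.6 with gRNA2, so all 3 groups were apart in CPM. It was called with gRNA2 too, at 0.841-fold (edgeR adjusted p = 0.0086). The direct comparison of gRNA2 with gRNA1 did not pass (1.10-fold, edgeR adjusted p = 0.1385). In TPM the groups overlapped, at 11.4 to 14.5 in the controls, 8.87 to 12.7 with gRNA1 and 10.4 to 12.4 with gRNA2. With gRNA2, 5 of the 18 fell and 1 rose, where 4.75% of all genes were called lower and 3.69% higher. The histone deacetylase HDAC1, a corepressor of RB1, fell to 0.793-fold (edgeR adjusted p = 0.000249), and MYBL2, the activator that joins the MuvB core in S phase, to 0.775-fold (0.0019). TFDP1, the dimer partner of E2F, fell to 0.853-fold (edgeR adjusted p = 0.00511), and E2F5 rose to 1.15-fold (0.0414). The list's median was -0.014 with gRNA1 and -0.045 with gRNA2 on the log2 scale. With length offsets 0 of the 18 passed with gRNA1 and 1 with gRNA2. The count with gRNA1 was 1 when control replicate 2 or either of the first 2 gRNA1 libraries was left out, and without gRNA2 replicate 2 that with gRNA2 was 3.

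The list of 20 genes of ubiquitin ligases that act on G1 proteins also holds the deubiquitinases USP2 and USP28. Of the 20, 2 were called lower with gRNA1 and 6 with gRNA2, where 3.58% and 4.75% of all genes were. None was called higher. The 2 with gRNA1 were DDB1 and USP28, at 0.894-fold and 0.874-fold (edgeR adjusted p = 0.0116 and 0.0234). DDB1, the adaptor of the CUL4 ligase, fell to 0.871-fold with gRNA2 (edgeR adjusted p = 0.00308). CCNF, the F-box protein cyclin F, fell to 0.780-fold (edgeR adjusted p = 0.0113). FBXO5, the inhibitor of the anaphase-promoting complex, was 0.772-fold with gRNA2 against gRNA1 (edgeR adjusted p = 0.0118). The count with gRNA1 was 0 with length offsets, without control replicate 1 and without gRNA1 replicate 2, and 1 without control replicate 2 or 3, gRNA1 replicate 3 or gRNA2 replicate 2. The count with gRNA2 was 2 with length offsets, 2 without control replicate 2, 1 without control replicate 3, 3 without gRNA2 replicate 1 and 2 without gRNA2 replicate 2.

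Most genes of the list of E2F targets of the G1/S transition, which encode replication and nucleotide synthesis proteins, passed as lower with gRNA2. Of 30 genes, 1 fell with gRNA1 and 19 with gRNA2, against 3.58% and 4.75% of all genes, and the median log2 fold change was -0.025 and -0.228. UHRF1, which maintains DNA methylation, had 57.5, 54.6 and 52.6 CPM in the controls, 51.0, 53.2 and 52.9 with gRNA1, and 45.1, 42.3 and 41.6 with gRNA2. The gRNA2 libraries were below all others. It fell to 0.785-fold with gRNA2 (0.730 to 0.844, edgeR adjusted p = 0.000748), and MCM4, of the replicative helicase, was at 0.760-fold of gRNA1 (0.710 to 0.813, edgeR adjusted p = 0.000158). With length offsets 3 of the 30 passed with gRNA2, and leaving out 1 library gave 14 to 19. The call with gRNA1 was lost without any 1 control or without gRNA1 replicate 1 or 2. Of the 25 genes with a promoter window 60% held the E2F motif. It was found in 9 of the 19 genes that fell with gRNA2 and in 6 of the 11 that did not pass, counting the genes with no window as without it.

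The G2 and mitosis genes gave a still larger count with gRNA2, 28 of 30 lower, where 4.75% of all genes were called lower. Their median log2 fold change with gRNA2 was -0.349. With gRNA1 1 of 30 was lower, where 3.58% of all genes were. CCNB1, the mitotic cyclin, had 89.9, 89.3 and 90.8 CPM in the controls, 83.8, 86.0 and 78.5 with gRNA1, and 60.4, 60.4 and 62.4 with gRNA2, a fold change of 0.678 (0.636 to 0.722, edgeR adjusted p = 4.89e-06). MKI67, the proliferation marker, fell to 0.731-fold (edgeR adjusted p = 1.39e-05). The list's sum was 2980 to 3030 per 1000000 reads in the controls and 2330 to 2450 with gRNA2. With length offsets 15 of the 30 passed with gRNA2, and without the third gRNA2 library, the one that stood apart, 26 did. The call with gRNA1, that of FOXM1, was lost with length offsets, without any 1 control and without gRNA1 replicate 1 or 2. DESeq2 and no filter each gave 2 calls with gRNA1. Whether the lists differ from the 10 genes was not tested.

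**Figure D5:**
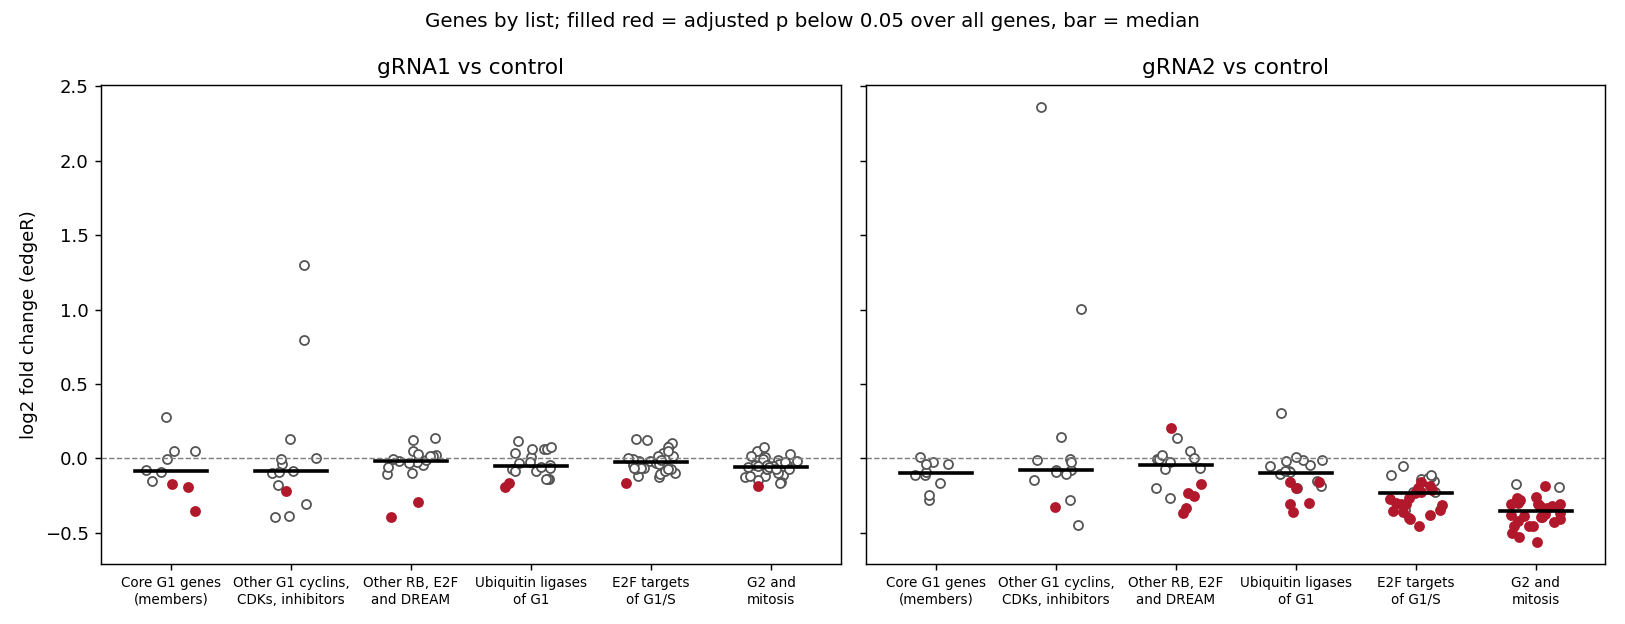
Log2 fold changes (edgeR) of single genes (points) by list, for each guide over the control; filled red points passed an adjusted p of 0.05 over all genes, and bars are medians. The E2F target and G2 and mitosis lists lie below 0 with gRNA2, at medians of -0.228 and -0.349; the unfilled points above 0.7 are CCNA1 and CDK7.

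The genes most like the 3 members with the lowest adjusted p were found by the Pearson r of log2 CPM over the 9 libraries, among 12068 protein-coding genes. The 9 points share the 3 groups and differ in depth, so r is a description. For CCND1 they were CCBE1 (r = 0.978), GPRC5A (0.974) and ARIH2 (0.973). GPRC5A, a receptor of airway epithelium, fell with gRNA1 by 0.54 on the log2 scale (edgeR adjusted p = 1.35e-07), a larger difference than that of CCND1. For CDKN1B they were CHMP5 (0.987), ANXA1 (0.985) and NEPRO (0.970), and for CCND3 they were ETV4 (0.975), FGFR4 (0.961) and TTI1 (0.959). ETV4, an ETS transcription factor, fell with gRNA1 by 0.27 on the log2 scale (edgeR adjusted p = 0.0318).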

How the data were processed

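Total RNA of 9 libraries of H1975 cells, 3 per group, was sequenced after ribosomal RNA depletion, per the labels' protocols. Transcripts were quantified with Salmon 1.4.0 against hg38, per the submitters' processing notes. Each deposited table gives an estimated count of reads, a TPM value and an effective length per transcript, per the file headers, and the authors' deposited TPM is scaled within a library. Of 211939 transcripts 95.71% matched GENCODE 29. Summing these estimates per gene gave 56823 genes, rounded to whole reads, and left out 1.264% to 1.325% of reads on unmatched transcripts. TPM was summed per gene and entered no test.

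In edgeR 4.0.16 (R 4.3.3), filterByExpr kept 19658 genes, libraries were TMM-scaled, and two-sided quasi-likelihood F tests made 3 comparisons in 1 fit of all 9 libraries. Genes passed at an adjusted p below 0.05 (Benjamini-Hochberg, all genes tested together), and intervals for fold changes are 95%. CPM used the TMM-scaled totals. The fit was first tested on simulated data whose changes were known. The alternatives were DESeq2 1.42.0, RLE scaling, no filter, a replicate block, fits of the 2 groups compared, transcript length offsets, protein-coding genes alone, and leaving out each library. Deviations of same-numbered libraries correlated at r of 0.105 to 0.21 between control and gRNA2, and at -0.139 to 0.121 in the other comparisons. Differently numbered libraries reached 0.22 (gRNA1 replicate 3 with gRNA2 replicate 1), and the labels give no pairing. All replicate pairs differed beyond counting noise.

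The members and gene lists were chosen with earlier results of these data known. Named genes were the 10 members, from each list the 3 that passed with the lowest adjusted p, and the 3 genes most like each of 3 members; 1 gene named by this rule is not reported here. E2F8, TFDP1, E2F5, USP2, USP28, CCND2, CCNA1, FOXM1, CDK7, COL3A1, CD68 and the genes of the closing observations were chosen after their values were seen. Shared 31-base words were counted on both strands from GENCODE 29 transcripts. Current symbols were found for 99.14% of genes. Tables were joined and plotted with Python 3.11.15, pandas 2.3.3, numpy 2.4.6, scipy 1.17.1 and matplotlib 3.10.9.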

Additional observations from a re-analysis of the deposited data

Results flagged for a closer look

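The response of CCND1 differed between the guides. Its log2 fold change of gRNA2 over gRNA1 was 0.134 by the direct comparison (edgeR adjusted p = 0.0243), with all 3 gRNA2 libraries (252 to 254 CPM) above all 3 gRNA1 libraries (228 to 232 CPM). Over the alternatives the adjusted p ran from 0.00314 to 0.108, and 12 of 16 kept it past the threshold. TRIDDENT itself was at 1.27-fold for gRNA2 over gRNA1 (1.00 to 1.61, edgeR adjusted p = 0.252), and its part in the CCND1 difference was not tested. LTO1, which overlaps CCND1, was at 1.089-fold (1.022 to 1.16, edgeR adjusted p = 0.113), and its part was not tested either.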

How the results depend on the processing

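Members passing with gRNA1, 3 in the fit described, were 1 with the replicate block, 1 with transcript length offsets and 0 to 3 when 1 library was left out, with 0 only without control replicate 2. With gRNA2 1 passed with no filter (CCND3, edgeR adjusted p = 0.0324), and between the guides 0 to 1 when 1 library was left out. Over all genes, length offsets gave 538, 434 and 446 calls for gRNA1, gRNA2 and gRNA2 over gRNA1, and leaving out 1 library gave 654 to 1701, 671 to 1817 and 575 to 1215. The replicate block gave 1264, 1582 and 1144; deviations of same-numbered libraries correlated at 0.21, 0.107 and 0.105 between control and gRNA2, but at -0.136 to 0.121 between control and gRNA1 and -0.139 to 0.0548 between the guides, so the numbers were not taken as pairs throughout. With gRNA2 the block left 0 members called and moved no list's count by over 1.5 times. With gRNA1 it took CCND3 to an adjusted p of 0.0643 and CDKN1B to 0.0611.

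Signs turned only in differences that did not pass. With gRNA1, the log2 fold change with length offsets was -0.087 for CCNE2, 0.004 for CDK4 and 0.05 for CDK6. CDK6 was also 0 with RLE, 0.004 in the fit of 2 groups and 0.021 among protein-coding genes. With gRNA2, length offsets gave 0.024 for CCND1, 0.033 for CCND3 and 0.09 for CCNE1, and DESeq2 gave 0 for CDK6. Leaving out 1 library gave, with gRNA1, -0.007 to 0.153 for CCNE2, -0.022 to 0.032 for CDK6 and -0.005 to 0.126 for RB1. With gRNA2 it gave -0.039 to 0.001 for CCNE1, -0.021 to 0.052 for CDK6, -0.156 to 0.021 for CDKN2C and -0.088 to 0.04 for RB1, and between the guides -0.044 to 0.019 for CDK4 and -0.023 to 0.049 for CDK6. The cause was not tested. CCNE2 and CDKN2C, at 65 to 133 reads per library, have the widest intervals. Of 480 member values under alternatives, 428 kept their direction and side of the threshold, 23 lost a call, 1 gained one and 28 turned.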

Other observations

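Among the other G1 inhibitors and kinases, CDKN1A (p21), the inhibitor that p53 induces, was at 0.996-fold with gRNA1 (0.883 to 1.12, edgeR adjusted p = 0.981) and 1.10-fold with gRNA2 (0.980 to 1.24, 0.31). Its first gRNA2 library, at 24.5 CPM, lay above the other 8, which had 18.5 to 20.6. CDKN2A, the INK4 inhibitor of the same locus as CDKN2B, was at 0.933-fold and 0.930-fold (edgeR adjusted p = 0.227 and 0.189). It had 58.9 to 68.4 CPM per library. Its TPM, summed over all transcript models of the gene, ran from 165 to 197, above the sum of every member. Its transcripts were not examined singly, so that sum may rest on short models and is not the level of 1 transcript. CDK2, the partner of cyclin E, was at 0.975-fold and 0.949-fold (edgeR adjusted p = 0.735 and 0.417), with 38.3 to 44.5 CPM per library.

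CDK7, the kinase that activates the G1 CDKs, had 40, 61 and 407 reads in the controls, 56, 37 and 1111 with gRNA1, and 1914, 62 and 669 with gRNA2. The 9 libraries fell at 37 to 62 or at 407 to 1914 reads, and every group held both kinds. Its partners CCNH and MNAT1 showed no such split, with SDs of at most 3.22 and 1.84 CPM. The fold changes of CDK7, 2.47 (0.417 to 14.6) and 5.15 (0.975 to 27.2), did not pass (edgeR adjusted p = 0.574 and 0.222), and the cause of the split was not tested. Reads on transcripts outside GENCODE 29 were left out, and how they were divided with CDK7 is not known, so these values may not be the level of the gene alone.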
